A study of Mus musculus with 4 samples.

Results

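The transcripts described here belong to a group of 37 genes for fatty acid oxidation, ketone body metabolism and lipid droplets, measured in mouse colon on 4 Affymetrix arrays. Members were taken by symbol from probe sets that carry a single gene symbol, and where a gene had several, the one with the highest average signal stood for it. Of the 37 listed genes 35 were measured in this way, of 18194 genes in all. A value of at least 6 on at least 1 array, the floor used here, was reached by 34 of them and by 11871 genes in all. Acsl1 and Cpt1b, an acyl-CoA synthetase and the muscle form of carnitine palmitoyltransferase, had no such probe set and were not analysed here.

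Each of 4 genotypes was represented by 1 array of RNA from scraped colon mucosa. All mice were of strain 129S6/SvEv, were 5 weeks old and received standard chow. The VhlF/F array came from mice with floxed Vhl, and the VhlΔIE array from mice whose Vhl was deleted in the intestine. The VhlF/F/Apcmin/+ and VhlΔIE/Apcmin/+ arrays came from the same Vhl genotypes with the Min mutation of Apc, a model of intestinal tumors. The design text counts 4, 3, 3 and 5 mice for VhlF/F, VhlΔIE, VhlF/F/Apcmin/+ and VhlΔIE/Apcmin/+. It does not say whether their RNA was pooled, and the promoter that drives the deletion is not named in the labels. Vhl encodes the part of a ubiquitin ligase that recognises hypoxia-inducible factors, and the comparisons ask how its loss, alone or with mutant Apc, alters colon transcripts.

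Colonocytes draw much of their energy from butyrate and other fatty acids. Long chains are activated to acyl-CoA, enter mitochondria through the carnitine shuttle and are shortened by beta-oxidation, whose electrons pass through the electron transfer flavoprotein to the respiratory chain. Ketone bodies are made from the acetyl-CoA that results, PPAR receptors and their coactivators drive many genes of the pathway, and lipid droplets hold fatty acids that are not burned.

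The bases before the start of the gene are shown for members whose values carry the results. Fabp1, Fabp2 and Hsd17b13 differed most between arrays, Ppargc1a and Acsl3 read lower in both Vhl deleted arrays, and Hadhb stands for the enzymes that differed little. Each line holds the 250 bases upstream of the RefSeq start on the strand of the gene, 5′ to 3′, from GRCm38.p6. Capitals mark AGGTCA on either strand, the half-site of nuclear receptors such as the PPARs (TGACCT when read from the other strand). They also mark ACGTG on either strand (CACGT from the other strand) and TATAAA on the strand of the gene. ACGTG is a form of the core of the hypoxia response element, and the form GCGTG was not searched.
Fabp1, chr6:71199629-71199878, plus strand: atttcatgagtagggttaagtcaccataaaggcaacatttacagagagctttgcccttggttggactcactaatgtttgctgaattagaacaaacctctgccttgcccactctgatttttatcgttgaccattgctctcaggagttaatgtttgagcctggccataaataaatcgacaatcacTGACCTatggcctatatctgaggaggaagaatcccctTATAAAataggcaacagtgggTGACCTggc
Fabp2, chr3:122894822-122895071, plus strand: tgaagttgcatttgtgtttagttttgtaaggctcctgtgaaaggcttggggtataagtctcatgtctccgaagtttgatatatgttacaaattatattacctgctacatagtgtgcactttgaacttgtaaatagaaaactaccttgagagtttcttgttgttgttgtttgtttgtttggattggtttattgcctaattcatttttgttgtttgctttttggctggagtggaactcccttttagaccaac
Hsd17b13, chr5:103977389-103977638, minus strand: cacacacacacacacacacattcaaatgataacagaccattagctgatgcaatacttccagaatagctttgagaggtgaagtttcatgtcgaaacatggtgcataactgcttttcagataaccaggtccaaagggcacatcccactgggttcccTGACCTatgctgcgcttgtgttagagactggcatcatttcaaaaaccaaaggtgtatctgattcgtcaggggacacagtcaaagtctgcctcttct
Ppargc1a, chr5:51567726-51567975, minus strand: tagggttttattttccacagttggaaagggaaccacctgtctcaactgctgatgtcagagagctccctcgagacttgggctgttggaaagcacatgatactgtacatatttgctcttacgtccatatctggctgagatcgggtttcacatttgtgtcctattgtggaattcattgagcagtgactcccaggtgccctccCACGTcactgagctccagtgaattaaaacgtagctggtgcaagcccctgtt
Acsl3, chr1:78657575-78657824, plus strand: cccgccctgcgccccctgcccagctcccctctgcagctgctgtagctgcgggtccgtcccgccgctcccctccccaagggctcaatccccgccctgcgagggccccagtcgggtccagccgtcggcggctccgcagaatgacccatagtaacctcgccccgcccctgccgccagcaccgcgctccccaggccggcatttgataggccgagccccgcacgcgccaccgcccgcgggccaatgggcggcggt
Hadhb, chr5:30155003-30155252, plus strand: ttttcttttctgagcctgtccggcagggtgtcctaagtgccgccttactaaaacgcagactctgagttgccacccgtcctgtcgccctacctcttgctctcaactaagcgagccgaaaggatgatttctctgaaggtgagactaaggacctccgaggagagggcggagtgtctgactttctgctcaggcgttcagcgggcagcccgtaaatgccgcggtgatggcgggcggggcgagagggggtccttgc
The Fabp1 window held 2 half-sites, at -67 to -62 and -9 to -4 from the start, and a TATA box at -30 to -25. Hsd17b13 held a half-site at -96 to -91, and Ppargc1a held the hypoxia response core at -51 to -47. None of these motifs was found in the windows of Fabp2, Acsl3 and Hadhb. The GC content was 75.6% for Acsl3, 58.8% for Hadhb, 48.0% for Ppargc1a, 44.8% for Hsd17b13, 42.8% for Fabp1 and 35.6% for Fabp2, where the median over all windows was 52.4%. Hadhb and Hadha, which encode both subunits of the trifunctional protein, face away from each other with 272 bases between their starts.

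A window was listed for 33 of the 37 members, which held 37 windows in all. None was listed for Acaa2, Acat1, Cpt1b and Decr1. The half-site AGGTCA was found in 9 of the 37 member windows and in 14.0% of all 32851 windows of this length. The 9 windows belonged to 8 members, Acadm, Acadvl, Cd36, Cpt1a, Fabp1, Hsd17b13, Plin2 and Pparg. ACGTG was found in 2 member windows, those of Acadvl and Ppargc1a, and in 16.6% of all windows. TATAAA was found in 1 member window, that of Fabp1, and in 7.59% of all windows. The E-box CACGTG, which contains ACGTG, and the direct repeat made of AGGTCA, any base and AGGTCA, each searched on both strands, were found for 0 members and in 6.02% and 0.0335% of windows. A match describes these letters and is not a measured binding site.

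The arrays differed in other ways that touch the members. Vhl itself read 8.40 and 8.17 in the floxed arrays, and 7.03 and 6.56 in the deleted arrays. Xist, the noncoding RNA that silences an X chromosome, was at 11.37 and 11.83 where Vhl was floxed but at 5.58 and 6.25 where it was deleted, so the sex makeup of the samples cannot be told apart from Vhl status. Eif2s3y, which lies on the Y chromosome, read 8.58, 8.78, 7.27 and 8.80 in VhlF/F, VhlΔIE, VhlF/F/Apcmin/+ and VhlΔIE/Apcmin/+, the order used for 4 values throughout. Of 16 hepatocyte markers, 15 were highest in the VhlF/F array, where all 16 reached the floor against 5, 2 and 4 in the other arrays, and their summed linear level was 11582, 2831, 4262 and 2669, or 8349, 772, 457 and 631 without Ttr, transthyretin. The VhlF/F/Apcmin/+ array stood apart in other genes, among them Sptssb at 3.98 against at least 10.17 elsewhere and Hoxd13 at 11.08 against 8.65 to 9.13. All 11 absorptive colonocyte markers reached the floor in every array, with medians of 12.90, 12.75, 12.93 and 12.87 and summed linear levels of 89970, 65856, 82896 and 71382. Single markers differed, and not in 1 direction. Slc26a3, the chloride exchanger, read 13.65, 12.96, 13.65 and 12.89, lower in both deleted arrays. Guca2b read 7.89, 8.49, 7.55 and 9.10, higher in both deleted arrays. Tmigd1 read 10.12 in VhlF/F and 7.94 in VhlF/F/Apcmin/+. The 9 epithelial markers had medians of 12.43, 12.57, 12.31 and 12.53. In such tissue samples, fewer cells of a type and less RNA per cell cannot be told apart.

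In median absolute size the differences of the members were close to those of all genes. Values are RMA log2 values, so a difference of 1 is 2-fold, and with 1 array per genotype no difference has a replicate check. In 25 of the 34 members above the floor every one of the 4 comparisons was under 1.5-fold. This was a somewhat smaller share than the 82.6% of all genes for which the same held, and the gap was not tested. Among the other members, Fabp1 and Hsd17b13 passed the floor on 1 array alone, so they had to differ between arrays. The median difference of the members for Vhl deletion was -0.12 without and -0.0038 with the Apc mutation, where all genes had -0.020 and -0.023. For the Apc mutation it was -0.05 with floxed and 0.014 with deleted Vhl, where all genes had 0.0033 and 0.0022. The median absolute difference of the members in these comparisons was 0.19, 0.18, 0.11 and 0.10, and that of all genes was 0.18, 0.18, 0.12 and 0.10.

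Of the 34 members above the floor few were 2-fold apart, and they came from uptake, activation, Pdk4 and lipid droplets. For Vhl deletion without the Apc mutation, 0 members were at least 2-fold higher (2.27% of all genes) and 1 was lower, Fabp1 (1.60%). With the Apc mutation 2 were higher, Fabp2 and Hsd17b13 (2.82%), and 1 was lower, Acsl3 (1.52%). For the Apc mutation with floxed Vhl, 0 were higher (0.118%) and 4 of the 34 were lower, Fabp1, Fabp2, Pdk4 and Hsd17b13 (0.901%). With deleted Vhl 1 was higher, Hsd17b13 (0.202%), and 0 were lower (0.118%). Each count above 0 was a larger share of the 34 than the percentage beside it, as even 1 of 34 would be. Fabp1 passed the floor in the VhlF/F array alone and Hsd17b13 in the VhlΔIE/Apcmin/+ array alone, so both had to differ between arrays. For the Apc mutation with floxed Vhl both Hsd17b13 values were below the floor. With values under 6 raised to 6 its difference there was 0 and that of Pdk4 was -0.77, and the 4 lower became 2. The first comparison and the third share the VhlF/F array, and each of the other arrays likewise serves 2 comparisons, so these counts are not independent.

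**Figure D1:**
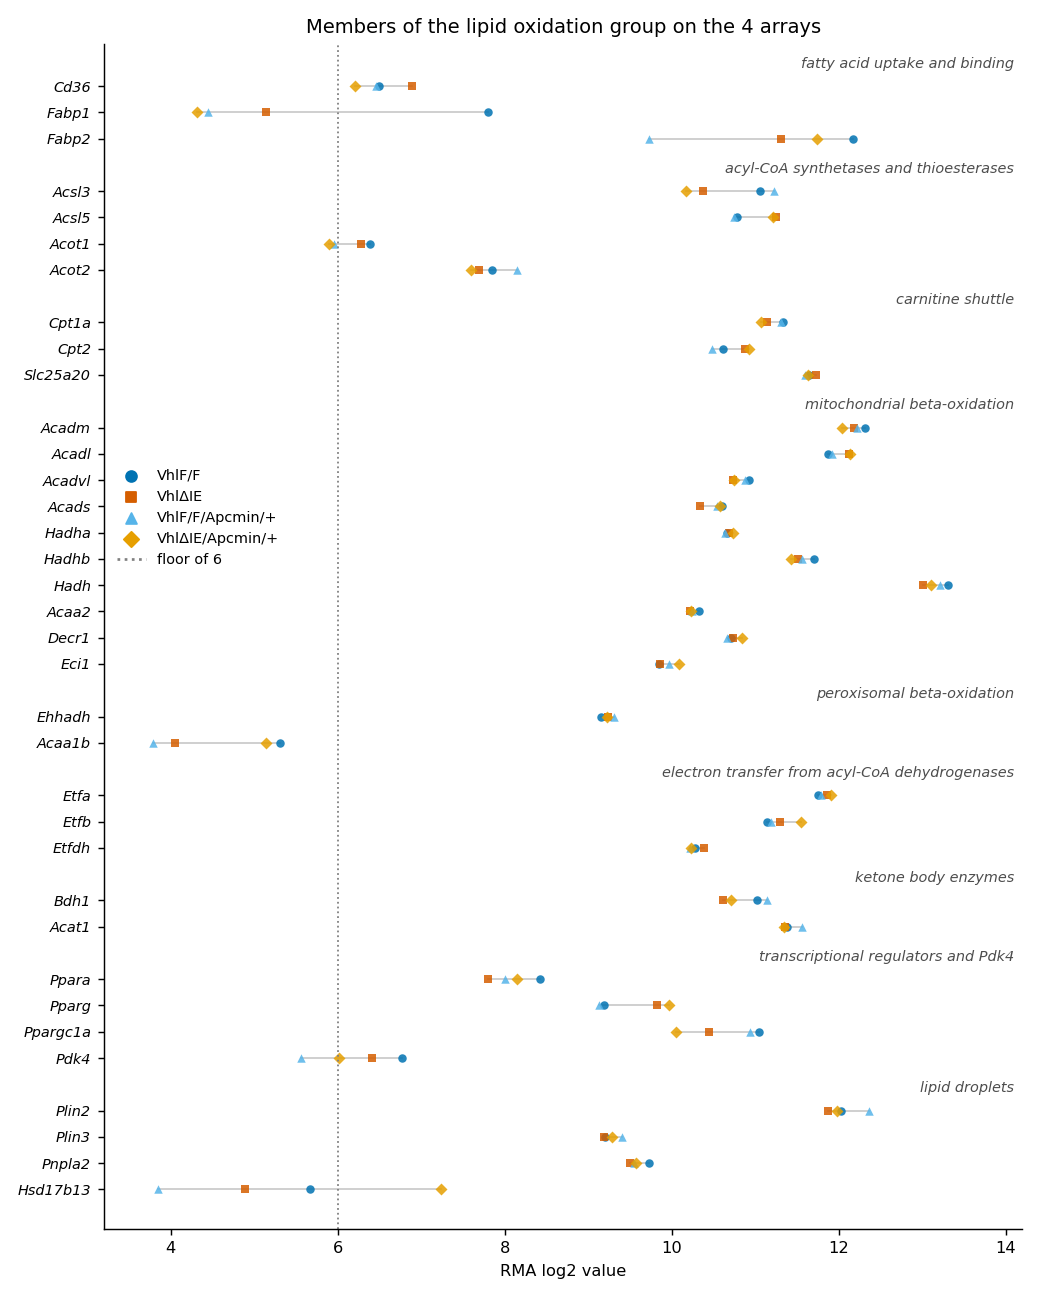
RMA log2 values of the 35 measured members, 1 point per genotype array, grouped by role; grey lines span the 4 arrays and the dotted line is the floor of 6. The 10 enzymes of mitochondrial beta-oxidation lie within 0.30 over the arrays, while Fabp1 spans 3.48, Hsd17b13 3.39 and Fabp2 2.44.

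Of the proteins that take up and bind fatty acids, Fabp1 and Fabp2 varied by more than 2-fold between arrays on the probe sets used. Fabp1, the liver-type fatty acid binding protein, read 7.80, 5.14, 4.44 and 4.32 in VhlF/F, VhlΔIE, VhlF/F/Apcmin/+ and VhlΔIE/Apcmin/+. It was thus above the floor in the VhlF/F array only, and it was 2.66 lower in VhlΔIE than in VhlF/F and 3.36 lower in VhlF/F/Apcmin/+. With values under 6 raised to 6 both differences were -1.80, so their sizes have no order. Its second probe set read 6.60, 4.76, 4.08 and 4.27, with the same array highest. This is the array in which the hepatocyte markers were highest, for example Alb, the plasma protein albumin, at 11.53 against 6.10 to 7.24. Their part in the Fabp1 difference was not tested. Set against the other floxed array, VhlΔIE was 0.70 higher for Fabp1, so its direction rests on the VhlF/F array.

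Fabp2, the intestinal fatty acid binding protein of enterocytes, was lowest in the VhlF/F/Apcmin/+ array. It read 12.17, 11.31, 9.73 and 11.74 in the 4 arrays, and each array but that one lay above 11. Vhl deletion went with 0.87 less without the Apc mutation and with 2.01 more with it, and this contrast of directions was not tested. With the floxed arrays exchanged the differences were 1.58 and -0.43, opposite in sign to those of the matched arrays. Of the small intestinal enterocyte markers 13 were measured, with medians of 8.13, 7.93, 6.92 and 7.35 and summed linear levels of 8707, 6770, 8196 and 6469. The median was lowest in the same array as Fabp2, where 2 of the 13 markers were lowest, while 7 were lowest in VhlΔIE/Apcmin/+. Those 2 were Alpi, at 8.13, 7.13, 6.51 and 7.99, and Apoa1, at 9.22, 8.70, 5.75 and 7.35. Slc5a1, a sodium and glucose transporter, read 11.17, 10.64, 11.49 and 10.72, highest where Fabp2 was lowest, and Lct and Slc2a2, lactase and the glucose transporter of the small intestine, stayed below the floor in all arrays. The part of these markers in the Fabp2 values was not tested.

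Cd36, a fatty acid translocase of endothelium, macrophages, adipocytes and enterocytes, lay just above the floor at 6.49, 6.89, 6.46 and 6.20. It was 0.40 higher with Vhl deletion without the Apc mutation and 0.25 lower with it. For the Apc mutation with deleted Vhl it was 0.69 lower. Of its 3 probe sets 2 reached the floor, and the second of these read 6.30, 6.59, 6.05 and 5.37. On that probe set Cd36 was 0.69 lower with Vhl deletion in Apc mutant mice. For the Apc mutation with deleted Vhl it was 1.22 lower there, to a value below the floor. All 11 endothelial markers were higher in the deleted arrays, with summed linear levels of 1502, 3529, 1533 and 3395.

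**Figure D2:**
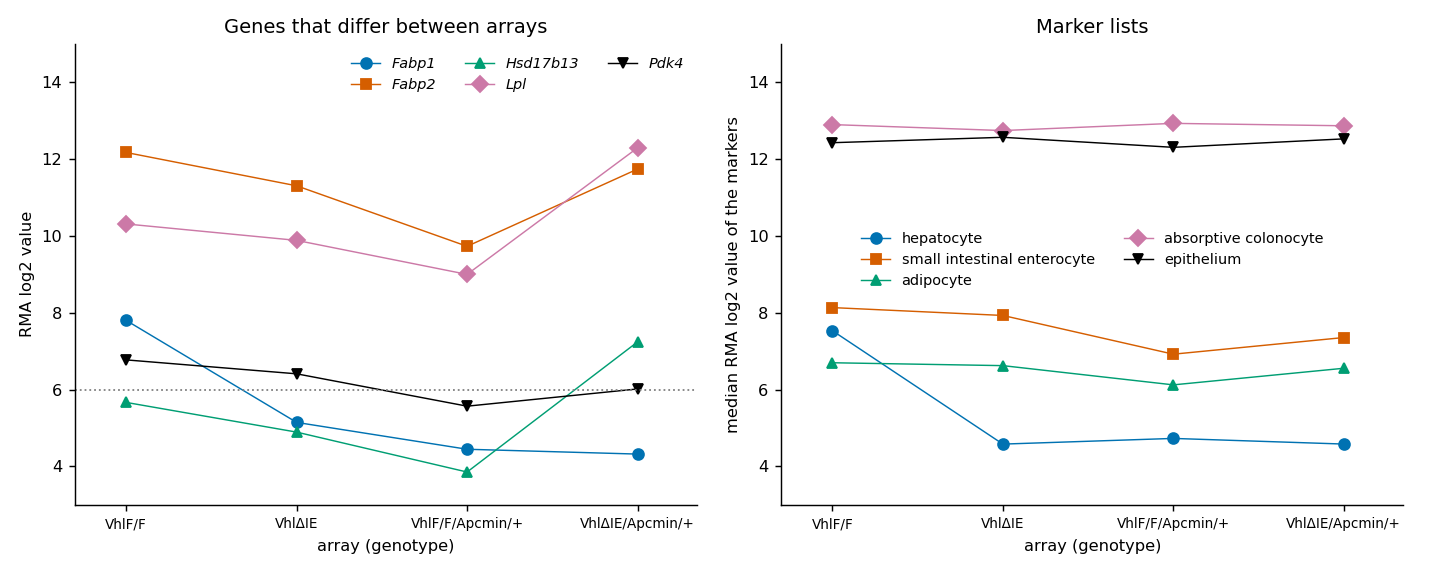
Left, RMA log2 values of 4 members and of Lpl by array, with the floor of 6 dotted; right, the median RMA log2 value of 5 marker lists by array; lines only join the values of a gene or list. Fabp1 and the hepatocyte median are highest in VhlF/F, Fabp2, Hsd17b13, Lpl and Pdk4 are lowest in VhlF/F/Apcmin/+, and the colonocyte and epithelial medians stay between 12.31 and 12.93.

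The acyl-CoA synthetases went in opposite directions with Vhl status. Acsl3, which activates long chains at the endoplasmic reticulum and on nascent lipid droplets, read 11.06, 10.37, 11.23 and 10.17. Both deleted arrays lay below both floxed arrays, by 0.69 without and 1.06 with the Apc mutation. Its 3 probe sets were all lower in both backgrounds, by 0.68 to 0.74 and by 0.68 to 1.25. The one used here can cross-hybridise by its name suffix, and without such probe sets the difference with the Apc mutation was -0.68, so the 2-fold call depends on the probe set. Acsl5, a synthetase of mitochondria and endoplasmic reticulum that is abundant in intestine, read 10.79, 11.25, 10.75 and 11.21, with both deleted arrays above both floxed arrays by 0.47 and 0.46. It has 1 probe set.

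The thioesterases, which split acyl-CoA back to free acid, differed less. Acot1, the cytosolic form, read 6.38, 6.28, 5.95 and 5.90, near or below the floor. It was lower in both Apc mutant arrays by 0.43 and 0.38. Acot2, the mitochondrial form, read 7.85, 7.69, 8.15 and 7.60 and was 0.55 lower with Vhl deletion in Apc mutant mice against 0.15 in the others.

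The carnitine shuttle, beta-oxidation enzymes, electron transfer proteins and ketone body enzymes stood nearly level across genotypes. All 18 members of these roles were under 1.5-fold apart in all 4 comparisons, where the share was 82.6% for all genes and 88.1% for the 2748 genes with a mean value of at least 10. Their differences for Vhl deletion ran from -0.41 to 0.27 without and from -0.42 to 0.44 with the Apc mutation. For the Apc mutation they ran from -0.14 to 0.18 with floxed and from -0.16 to 0.25 with deleted Vhl. Vhl deletion split them evenly without the Apc mutation, with 9 above and 9 below 0, and nearly so with it, with 10 above and 8 below.

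In the shuttle, Cpt1a, which commits long chains to oxidation by joining them to carnitine, read 11.33, 11.15, 11.31 and 11.07. It was lower in the deleted arrays by 0.18 and 0.24, and all 3 of its probe sets were lower in both backgrounds. Cpt2, which returns the chain to CoA inside the mitochondrion, read 10.62, 10.88, 10.48 and 10.92, higher in the deleted arrays by 0.27 and 0.44. The 2 transferases thus went opposite ways with Vhl status, each by less than 1.5-fold. Slc25a20, the carrier that exchanges carnitine and acylcarnitine across the inner membrane, ranged from 11.59 to 11.73.

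Of the acyl-CoA dehydrogenases, which take the first step of each turn for chains of different length, none differed by as much as 0.30. Acadm, for medium chains, read 12.31, 12.18, 12.21 and 12.04. Acadl, for long chains, read 11.87, 12.13, 11.93 and 12.13, higher in both deleted arrays by 0.26 and 0.21. Acadvl, for very long chains, ranged from 10.73 to 10.92 and was lower in both deleted arrays by 0.19 and 0.13. Acads, for short chains such as butyrate, read 10.60, 10.33, 10.54 and 10.58, with the VhlΔIE array alone apart. Medium and very long chain enzymes were thus lower and the long chain enzyme higher in the deleted arrays, all by small amounts.

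The later steps were equally level. Hadha and Hadhb, the alpha and beta subunits of the trifunctional protein, spanned 10.63 to 10.74 and 11.43 to 11.71. Hadh, the dehydrogenase of shorter chains, read 13.31, 13.01, 13.21 and 13.10. Acaa2, the mitochondrial thiolase, stayed between 10.22 and 10.32. Decr1 and Eci1, a reductase and an isomerase that prepare unsaturated chains for oxidation, spanned 10.66 to 10.84 and 9.85 to 10.09, and each was highest in VhlΔIE/Apcmin/+. In the peroxisome, Ehhadh, its bifunctional enzyme, read 9.16, 9.24, 9.31 and 9.22. The peroxisomal thiolase Acaa1b read 5.31, 4.06, 3.79 and 5.14, below the floor in every array, and entered no count.

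The electron transfer flavoprotein differed little as well. Etfa, its alpha subunit, read 11.75, 11.86, 11.78 and 11.91, and Etfb, its beta subunit, read 11.14, 11.30, 11.19 and 11.55. Both were higher in the deleted arrays, Etfa by 0.12 in each background and Etfb by 0.16 and 0.37. Etfdh, which passes the electrons on to ubiquinone, ranged from 10.22 to 10.38. For comparison, the 28 oxidative phosphorylation genes that were above the floor had median differences for Vhl deletion of -0.08 and -0.10, and each of them was under 1.5-fold apart in these comparisons.

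Of the ketone body enzymes, Bdh1 followed Vhl status. Bdh1, which interconverts acetoacetate and beta-hydroxybutyrate, read 11.03, 10.61, 11.14 and 10.71. Both deleted arrays lay below both floxed arrays, by 0.41 and 0.42. Its second probe set read 8.73, 8.69, 8.68 and 8.51, lower by only 0.04 and 0.17, so its probe sets differ in the size of the difference. Acat1, the mitochondrial acetoacetyl-CoA thiolase, read 11.38, 11.35, 11.56 and 11.34.

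The regulators differed more than the enzymes. Ppargc1a, a coactivator of PPARs and other nuclear receptors that drives mitochondrial genes, read 11.04, 10.44, 10.94 and 10.06. Both deleted arrays lay below both floxed arrays, by 0.60 without and 0.88 with the Apc mutation, and all 5 of its probe sets were lower in both backgrounds, by 0.54 to 0.74 and by 0.87 to 0.99. Pparg, the PPAR of adipocytes that is also abundant in colonic epithelium, went the other way at 9.19, 9.82, 9.13 and 9.97, higher by 0.63 and 0.84 on its 1 probe set. At least 1.5-fold in both backgrounds, Pparg was the 1 member that was higher (4.42% of all genes), and Acsl3 and Ppargc1a were the 2 that were lower (2.73%). At 2-fold in both backgrounds there were 0 in either direction.

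Other transcripts followed Vhl status in the same arrays. All 10 smooth muscle markers were lower in the deleted array of both backgrounds, with summed linear levels of 35859, 25860, 32339 and 24338. Of the 8 macrophage markers, all were higher with Vhl deletion without the Apc mutation and 7 with it, with sums of 4224, 6341, 4757 and 5601. The 13 circadian clock genes above the floor had median differences of -0.58 and -0.57 for Vhl deletion, and 0.47 and 0.37 for the Apc mutation. The part of these transcripts in the values of Ppargc1a, Pparg, Acsl3, Acsl5 and Bdh1 was not tested.

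Ppara, the PPAR that drives fatty acid oxidation in liver, followed no such pattern. It read 8.43, 7.80, 8.01 and 8.15, 0.63 lower with Vhl deletion without the Apc mutation and 0.14 higher with it. All 3 of its probe sets were lower without the mutation, and 2 of 3 were higher with it. Pdk4, the kinase that shuts pyruvate dehydrogenase when fatty acids are burned, read 6.77, 6.41, 5.57 and 6.01, near or below the floor. It was 1.21 lower in VhlF/F/Apcmin/+ than in VhlF/F, and 0.77 lower when values under 6 were raised to 6.

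**Figure D3:**
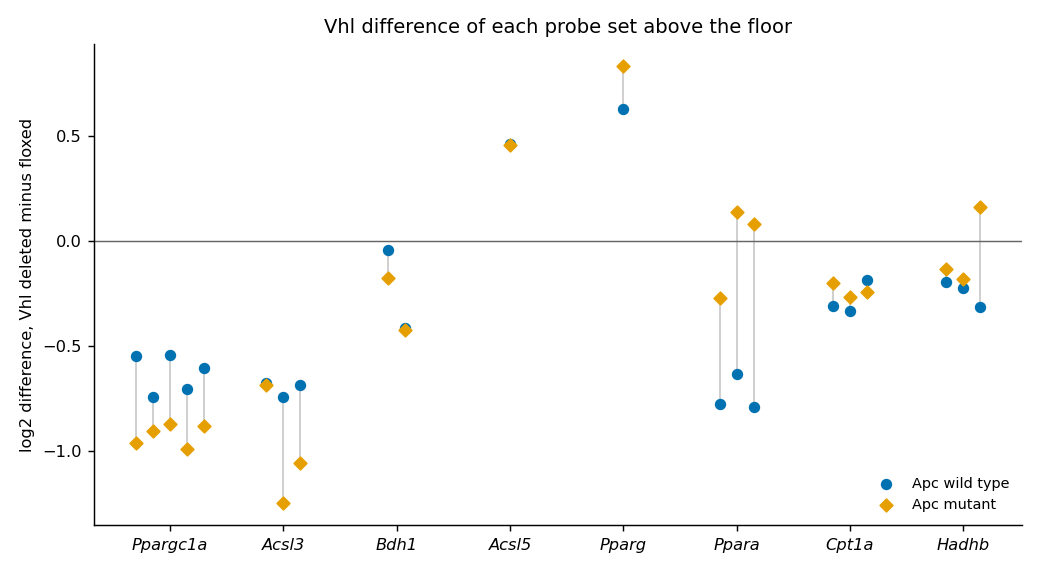
Log2 difference of Vhl deleted minus floxed for every probe set above the floor of 8 members, circles for Apc wild type and diamonds for Apc mutant mice; a grey line joins both values of a probe set. All 5 probe sets of Ppargc1a and all 3 of Acsl3 lie below 0 in both backgrounds, while the 3 of Ppara lie below 0 in Apc wild type mice and spread around 0 in Apc mutant mice.

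Of the lipid droplet members only Hsd17b13 differed by more than 1.5-fold in any comparison. Hsd17b13, a dehydrogenase on droplets that is best known from liver, read 5.66, 4.89, 3.85 and 7.24. It was above the floor in VhlΔIE/Apcmin/+ alone, 3.39 higher than in VhlF/F/Apcmin/+ and 2.35 higher than in VhlΔIE, or 1.24 in both cases with values under 6 raised to 6. Without the Apc mutation it was 0.77 lower in VhlΔIE than in VhlF/F but 1.04 higher than in the other floxed array, all of them below the floor. With values under 6 raised to 6 the Vhl difference without the Apc mutation was 0, so no change of direction between backgrounds remained. The contrast between backgrounds was not tested. Its second probe set read 4.54, 4.80, 4.54 and 4.42, below the floor in every array, so the value rests on 1 probe set. The hepatocyte markers are given by array above, and their part was not tested.

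Plin2 and Plin3, coat proteins of droplets, differed little. Plin2, the major coat in most cells outside fat, read 12.02, 11.87, 12.36 and 11.99, lower in the deleted arrays by 0.15 and 0.38. Plin3 ranged from 9.19 to 9.41 and was highest in the same array, VhlF/F/Apcmin/+. Pnpla2, the lipase that opens triglyceride breakdown, ranged from 9.50 to 9.72.

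**Figure D4:**
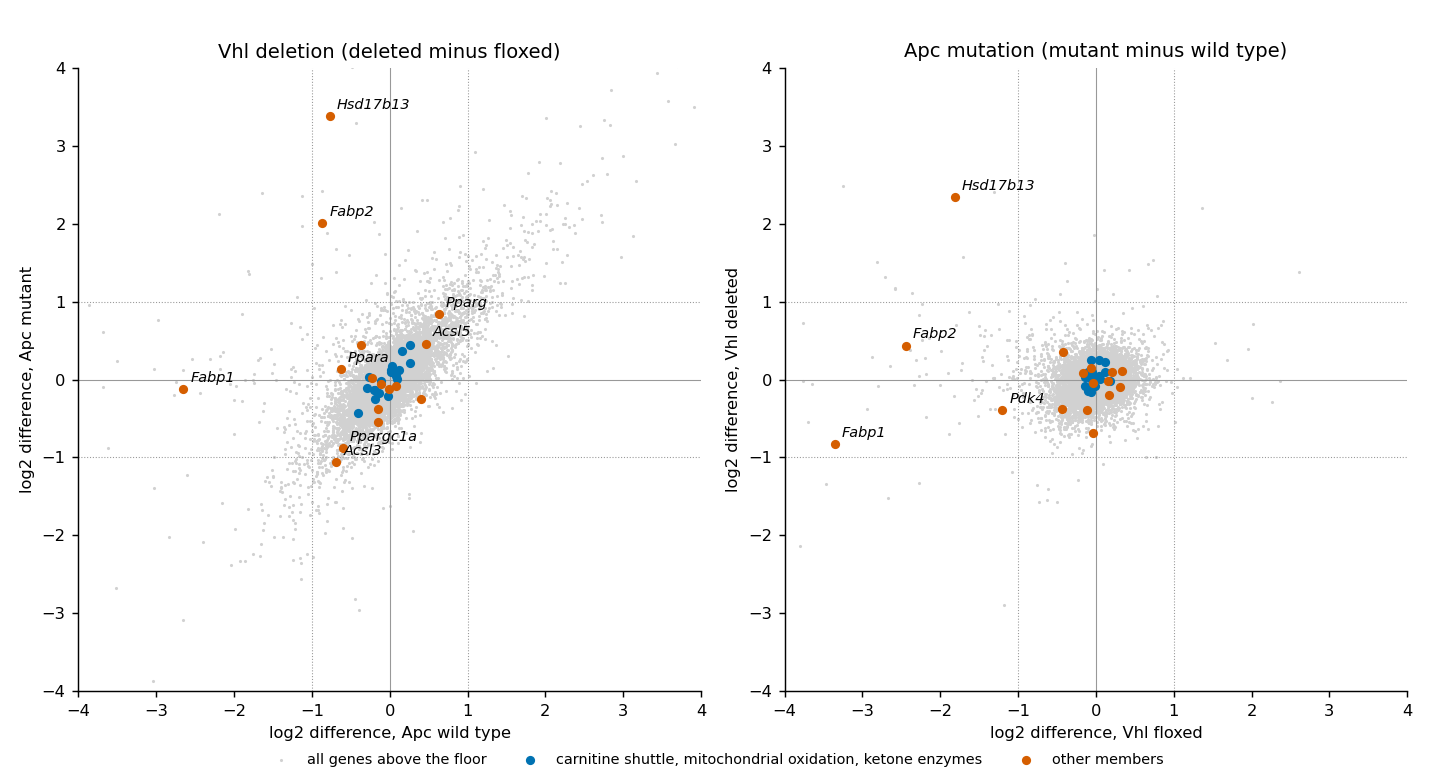
Log2 differences in both backgrounds for Vhl deletion (left, Apc wild type against Apc mutant) and for the Apc mutation (right, Vhl floxed against Vhl deleted), with all 11871 genes above the floor in grey and members in color; dotted lines mark 2-fold. The 18 members of the carnitine shuttle, mitochondrial oxidation and ketone enzymes sit near 0, Fabp2 and Hsd17b13 lie in the upper left of both panels, and 21 and 7 genes fall outside the axes, which end at 4.

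An additive limma fit asked which differences recurred in both backgrounds, with arrays of the other Apc status standing in for replicates. It called 0 members for Vhl in either direction at an adjusted p of 0.05, where 3.64% of all genes were called higher and 2.27% lower. At an unadjusted p under 0.05 it gave 4 members higher and 4 lower of 34, beside 15.4% and 16.6% of all genes, so the members lay near the background. Pparg was nearest to the threshold, with a difference of 0.73 (SE 0.09) and a limma adjusted p of 0.0501, and it was higher in the deleted array of both backgrounds. Ppargc1a had -0.74 (SE 0.10) with a limma adjusted p of 0.0576, and Acsl3 had -0.87 (SE 0.12) with 0.0601. Acsl5 had 0.46 (SE 0.07) with a limma adjusted p of 0.0601, and Bdh1 had -0.42 (SE 0.07) with 0.0662. The calls turn on the processing, since with a floor of 7 Pparg, Ppargc1a, Acsl3 and Acsl5 had limma adjusted p of 0.0407, 0.0481, 0.0498 and 0.0483, and with no floor 0.0797, 0.0909, 0.0927 and 0.0964.

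For the Apc mutation the same fit called 0 members and 0 of all genes (0%) in each direction. At an unadjusted p under 0.05 it gave 0 members higher and 2 lower, Acot1 and Pdk4, beside 445 higher (3.75%) and 665 lower (5.60%) genes in all. Acot1 and Pdk4 both read near or below the floor. The lowest limma adjusted p among members was 0.529.

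Other genes of the pathway were taken from lists of 101 genes, of which 92 were measured and 73 were above the floor. In 51 of these 73 (69.9%, against 82.6% of all genes) all 4 comparisons were under 1.5-fold. The additive fit called 4 higher (5.48%, against 3.64%) and 2 lower (2.74%, against 2.27%) with Vhl deletion. Vnn1, a pantetheinase and PPAR target, read 4.81, 7.42, 4.79 and 7.42. It was below the floor in both floxed arrays and passed it through the deleted arrays alone, so it had to differ; with values under 6 raised to 6 it was 1.42 higher in each background. Hilpda, a hypoxia-induced droplet protein that inhibits Pnpla2, read 7.22, 8.38, 7.08 and 8.36, 1.16 and 1.28 higher (limma adjusted p = 0.0347). Hilpda was thus more than 2-fold higher with Vhl deletion in both backgrounds, each time from 1 array minus another.

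The other called genes differed by less than 2-fold. Fabp4, the fatty acid binding protein of adipocytes, macrophages and endothelium, read 9.659, 10.239, 9.002 and 9.580, higher by 0.58 in each background, beside the endothelial markers that were higher in the same arrays. Their part in its difference was not tested. The kinases of pyruvate dehydrogenase split, with Pdk3 higher by 0.62 and 0.56 and Pdk2 lower by 0.57 and 0.59. Acad10, an acyl-CoA dehydrogenase relative, was lower by 0.57 and 0.66. Among the kinases Pdk1, a target of hypoxia-inducible factors, read 9.43, 10.87, 9.74 and 10.67, higher by 1.43 and 0.93 without passing the test (limma adjusted p = 0.0556).

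Of the other uptake and activation genes, Acsm3, a medium chain synthetase of mitochondria, read 11.22, 10.21, 11.35 and 9.78, at least 2-fold lower in both backgrounds but not called (limma adjusted p = 0.0570). Slc27a2, a very long chain synthetase and transporter, read 7.45, 5.56, 6.34 and 6.07, highest in VhlF/F with the hepatocyte markers, whose part was not tested. Eci3, a peroxisomal isomerase, read 8.001, 6.516, 8.192 and 7.201, lower by 1.49 and 0.99. In the ketone body list Oxct1, which opens ketone body use, was lower by 0.37 and 0.68 at 12.15, 11.78, 12.26 and 11.58. Slc16a1, the monocarboxylate transporter for butyrate and ketone bodies, read 12.62, 12.24, 12.37 and 11.94, lower by 0.38 and 0.43. Neither passed the test (limma adjusted p = 0.0903 and 0.0706).

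Droplet and lipase genes of the lists were higher in VhlΔIE/Apcmin/+ than in VhlF/F/Apcmin/+ in several cases. Lpl, lipoprotein lipase, read 10.312, 9.884, 8.999 and 12.294, so VhlΔIE/Apcmin/+ stood above all other arrays. Mgll, monoglyceride lipase, read 8.94, 9.84, 8.27 and 10.10, and Cidec, a droplet fusion protein, read 6.10, 6.67, 5.13 and 6.76. Acacb, the acetyl-CoA carboxylase whose product inhibits Cpt1a, read 6.27, 6.35, 5.83 and 6.84, near the floor. All 4 were lowest in VhlF/F/Apcmin/+, and none passed the additive fit, although Cidec had a limma adjusted p of 0.0498 with values under 6 raised to 6. Of 10 adipocyte markers measured 6 were lowest in that array, with summed linear levels of 3718, 3618, 1639 and 2571. Cidec is itself 1 of these 10 markers and of the 6, so the count partly restates its value. Adipoq, adiponectin, read 7.64, 7.55, 6.28 and 7.17. The part of the adipocyte markers in the values of the 4 genes was not tested.

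Of the remaining PPAR genes, Ppard, the PPAR of most epithelia, read 10.59, 10.38, 10.75 and 10.45, lower by 0.21 and 0.30. Angptl4, an inhibitor of lipoprotein lipase, read 6.08, 6.22, 5.90 and 6.21, and Plin5, the droplet coat of oxidative tissues, read 6.67, 6.90, 6.99 and 7.16. Ppard, Angptl4 and Plin5 were under 1.5-fold apart in the Vhl comparisons. In the 4 comparisons, in the order used for the members, 3, 6, 0 and 1 of the 73 were at least 2-fold higher, where all genes had 2.27%, 2.82%, 0.118% and 0.202%. At least 2-fold lower were 3, 1, 2 and 0, where all genes had 1.60%, 1.52%, 0.901% and 0.118%.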

How the data were processed

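The authors deposited log2 values for 45101 probe sets on 4 arrays, and the submitters' processing notes name affy and RMA without versions. RMA equalises the distributions of the arrays it treats together, so it hides a change common to most genes, and it compresses values near background. Members and lists were chosen with earlier results of these data known. Symbols are those of GEO's annotation of the platform and may be outdated: 34958 probe sets had 1 symbol, 932 several and 9211 were not listed. Each measured member is named with a value. Values in all 4 arrays were given for members 2-fold apart in any comparison and for others that define a role. Of the other pathway genes, Ppard, Angptl4, Hilpda, Plin5 and any gene 2-fold apart were named; those the fit called, and Oxct1, Slc16a1 and Pdk1 with its relatives, were added after their values were seen.

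Differences are 1 array minus another, and the number of arrays limits the precision. The additive fit (limma 3.58.1, R 4.3.3, Vhl and Apc status, 1 residual degree of freedom, prior degrees of freedom 2.14) ran on all 11871 genes above the floor with Benjamini-Hochberg adjustment, and was tested on simulated data. Alternatives were no floor, a floor of 7, values under 6 raised to 6, the mean over probe sets, cyclic loess, probe sets without a cross-hybridisation suffix, a 1.5-fold threshold and, chosen after seeing the data, an exchange of the floxed arrays. Python 3.11.15, numpy 2.4.6, pandas 2.3.3 and matplotlib 3.10.9 were used. Promoter windows came from RefSeq, GRCm38.p6.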

Additional observations from a re-analysis of the deposited data

Results flagged for a closer look

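Some genes had differences of opposite sign in the 2 backgrounds, each from single arrays, and the contrast itself was not tested. For Fabp2 the Vhl difference was 2.88 larger with than without the Apc mutation, which is also the amount by which its Apc difference was larger with deleted than with floxed Vhl. For Hsd17b13, below the floor in 3 of 4 arrays, this amount was 4.16, or 1.24 with values under 6 raised to 6. Its Vhl difference without the Apc mutation and its Apc difference with floxed Vhl were then 0, so no opposite sign remained. For Lpl, a lipase of the pathway lists, the amount was 3.72. For Slc27a2 the Apc difference was 1.62 larger with deleted than with floxed Vhl, or 1.18 with such values raised. Its Apc difference with deleted Vhl was then only 0.066. Fabp2, Hsd17b13 and Lpl were lowest in the VhlF/F/Apcmin/+ array, and Slc27a2 was highest in the VhlF/F array.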

How the results depend on the processing

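Counts of members moved with the processing. For Vhl deletion without the Apc mutation (0 higher, 1 lower) a 1.5-fold threshold gave 1 higher and 6 lower, no floor gave 2 lower, and the other floxed array gave 2 higher and 0 lower. With the Apc mutation (2 higher, 1 lower) the mean over probe sets gave 1 higher and 0 lower, dropping probe sets with a cross-hybridisation suffix gave 0 lower, a 1.5-fold threshold gave 2 lower, and the other floxed array gave 1 higher. For the Apc mutation with floxed Vhl the 4 lower became 2 when values under 6 were raised to 6. With deleted Vhl (1 higher, 0 lower) no floor gave 2 higher, the mean over probe sets 0 higher, and a 1.5-fold threshold 2 lower. The additive fit for Vhl (0 and 0) called 2 higher and 2 lower with a floor of 7, with the mean over probe sets and with cyclic loess, 1 higher with values under 6 raised to 6, and 2 lower without probe sets of that suffix. A floor of 7 tests fewer genes; the cause of the other shifts was not tested. With the other floxed array the difference of Fabp1 without the Apc mutation was 0.70 and that of Fabp2 with it was -0.43, both reversed from a 2-fold call. Fabp2 at 1.58 and Hsd17b13 at 1.04 without the Apc mutation also turned sign and passed 2-fold. In all, 16 of 68 member differences turned sign under that exchange and 52 kept it. Beyond the Apc term of the additive fit, which sets each deleted array beside its floxed array, no replicate numbers link the arrays. No other paired analysis was possible because each genotype has 1 array.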
